A study of Gallus gallus with 12 samples.

Results

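Thyroid hormone is carried in chicken blood largely by transthyretin, which the liver secretes, and it acts in cells through 2 nuclear receptors. The prohormone T4 is converted to the active hormone T3 by the outer-ring deiodinases, whereas the inner-ring deiodinase inactivates both. The 6 genes described here are the deiodinases DIO1, DIO2 and DIO3, the receptors THRA and THRB, and transthyretin (TTR). They were taken by gene symbol from the 18332 genes listed for each sample, and all 6 were found, each in 1 row, and all 6 had enough signal (a mean over 0.1 FPKM) to be tested in either tissue.

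RNA was sequenced from the livers and the abdominal fats of broilers fed a high-fat diet (HFD) or a normal diet (ND), with 3 samples in each of the 4 groups, HFD liver, ND liver, HFD abdominal fat and ND abdominal fat. All birds, controls included, were female 8-week-old Xinghua chickens with the dw gene, a growth hormone receptor mutation that makes them dwarfs, when the diets began. Tissues were collected at slaughter after the feeding period, so the sampled birds were older than 8 weeks. The sequenced HFD birds were those with the higher abdominal fat rate of their group and the ND birds those with the lower, so diet and selection for fatness cannot be told apart. The livers and fats of a diet came from the same 3 birds, which the tests between tissues treat as independent samples. Values are FPKM, sequenced fragments counted relative to transcript length and library size, a scale on which genes can be compared. Livers had 10799 to 11270 genes at 1 FPKM or more and abdominal fats had 12221 to 12492.

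The livers and the abdominal fats carried the markers of their labels. The 10 liver markers (ALB, fibrinogen chains and others) summed to 87662 to 104326 FPKM in the HFD livers and 70380 to 107468 FPKM in the ND livers. The 7 adipocyte markers summed to 14490 to 16238 FPKM in HFD abdominal fat and 13248 to 16090 FPKM in ND abdominal fat. Some abdominal fats stood apart. In ND abdominal fat replicate 2 the liver markers summed to 3896 FPKM, and each of the 10 was at 3.14% to 5.10% of its mean in the livers, against at most 0.193% in the 5 other abdominal fats. The members' values that this library moved are given with and without it. The 7 skeletal muscle markers found summed to 401, 62.3 and 52.5 FPKM in HFD abdominal fat, against 20.6, 16.6 and 54.8 FPKM in ND abdominal fat, with CKM at 46.98 FPKM in HFD replicate 1 and at most 0.69 FPKM in the other fats. The 7 blood and immune markers found ranged in sum from 519 to 944 FPKM in HFD liver, against 929 to 1000 FPKM in ND liver, and from 792 to 1030 FPKM in HFD abdominal fat, against 452 to 3692 FPKM in ND abdominal fat, where IGLL1 alone was at 3389 FPKM in ND replicate 1. None of the 6 genes was called between the diets with all fats, nor without HFD abdominal fat replicate 1 or ND abdominal fat replicate 1. Calls that stay absent cannot show what those libraries contributed. The part of these marker genes in the results was not tested. In tissue RNA, fewer cells of a type and less RNA per cell cannot be told apart.

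DIO1, the deiodinase typical of liver and kidney, which can remove iodine from either ring, was a liver gene in these birds. It was at 46.56, 41.69 and 39.42 FPKM in HFD liver, against 30.57, 23.76 and 31.72 FPKM in ND liver. Every HFD liver was above every ND liver. In abdominal fat it was at 0.33, 0.25 and 0.20 FPKM in HFD birds and at 0.29, 1.32 and 0.25 FPKM in ND birds, so the fats lay far below the livers and the diets overlapped. The mean of the livers was 164 times that of the fats on the high-fat diet and 46.3 times on the normal diet (106 times without ND abdominal fat replicate 2).

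DIO3, the inner-ring deiodinase that inactivates T4 and T3, differed most of the 6 genes between birds in liver, but little between birds in abdominal fat. It was at 0.75, 4.47 and 3.07 FPKM in HFD liver, against 14.74, 52.30 and 4.91 FPKM in ND liver. Every HFD liver was below every ND liver, but the highest HFD liver (4.47 FPKM) and the lowest ND liver (4.91 FPKM) were close, and ND replicate 2 alone was 10.7 times ND replicate 3. In abdominal fat DIO3 was at 1.17, 1.00 and 1.14 FPKM in HFD birds and 0.97, 1.28 and 0.84 FPKM in ND birds. These 6 fats were within a narrow band, and the diets overlapped.

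DIO2, the outer-ring deiodinase that makes T3 inside cells, was low everywhere. It was at 0.53, 1.42 and 0.48 FPKM in HFD liver and 0.26, 0.48 and 0.47 FPKM in ND liver. In abdominal fat it was at 0.34, 1.10 and 0.52 FPKM in HFD birds and 0.89, 0.26 and 3.44 FPKM in ND birds. ND abdominal fat held both the highest of the 12 values, in replicate 3, and one of the 2 lowest, in replicate 2, and all 4 groups overlapped with their neighbours in the order of the means.

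THRB, the receptor that carries most T3 signalling in the mammalian liver, was at 5.52, 7.75 and 7.24 FPKM in HFD liver, against 4.47, 3.67 and 3.73 FPKM in ND liver. The HFD livers were all above the ND livers. In abdominal fat THRB was at 0.48, 0.81 and 0.52 FPKM in HFD birds and 0.59, 0.87 and 0.69 FPKM in ND birds, below every liver and with the diets overlapping.

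THRA, the receptor found in most tissues, was the most even of the 6 genes. It was at 22.47, 22.69 and 20.93 FPKM in HFD liver and 21.30, 28.02 and 20.26 FPKM in ND liver. In abdominal fat it was at 25.05, 27.67 and 26.68 FPKM in HFD birds and 25.04, 25.00 and 25.62 FPKM in ND birds. The order of the group means, HFD fat, ND fat, ND liver and HFD liver, had overlapping ranges at each step. Across more than 1 step, every HFD liver (20.93 to 22.69 FPKM) was below every HFD fat (25.05 to 27.67 FPKM), as were 58% of all genes. THRA exceeded THRB in all 12 samples.

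TTR, the carrier of thyroid hormone and of retinol-binding protein, was among the 19 highest genes of every liver. Its levels were 3883, 4754 and 4260 FPKM in HFD liver and 3810, 4010 and 4407 FPKM in ND liver, and the diets overlapped. In abdominal fat it was at 2.37, 2.10 and 3.90 FPKM in HFD birds and 3.08, 184.50 and 7.54 FPKM in ND birds. The value of 184.50 FPKM was in ND replicate 2, the library with the liver markers.

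**Figure D1:**
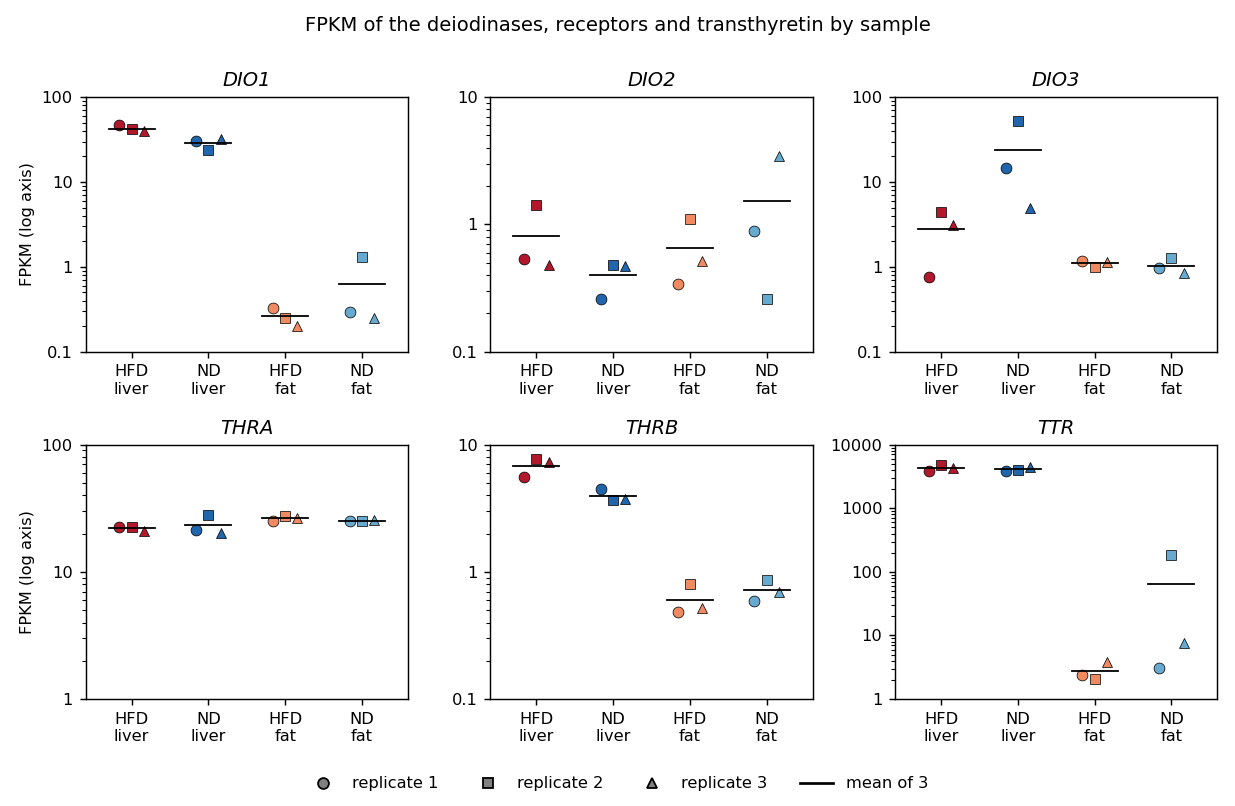
FPKM of the 6 genes in each of the 12 samples on log axes (points, with a marker shape for each replicate number), grouped by diet and tissue, with the mean of each 3 as a line. DIO1 and THRB are above, and DIO3 below, in all HFD livers relative to all ND livers, while TTR in abdominal fat has 1 high point of 184.50 FPKM.

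The tissues were compared within each diet with limma on log2(FPKM + 1) over 15442 genes, and a gene was called where its p, after Benjamini-Hochberg adjustment over all those genes, did not exceed 0.05. The high-fat diet gave 3 called members, all higher in liver, where 68.5% of all genes were called and 14.6% were called as higher in liver. DIO1 had a log2 fold change of 5.11 for liver over abdominal fat (95% interval 4.63 to 5.59, adjusted p = 6.489e-09), THRB one of 2.28 (1.97 to 2.60, adjusted p = 1.048e-07) and TTR one of 10.17 (7.89 to 12.45, adjusted p = 4.923e-06). On normal diet 4 members were called, again all higher in liver, where 71.6% of all genes were called and 13.7% as higher in liver. DIO1 had a log2 fold change of 4.25 (3.77 to 4.72), THRB one of 1.53 (1.21 to 1.85), TTR one of 7.77 (5.49 to 10.05) and DIO3 one of 3.08 (1.67 to 4.49, adjusted p = 0.001133). Without ND abdominal fat replicate 2 these were 4.54, 1.59, 9.43 and 3.16 in the same order, all still called.

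DIO3 was thus above abdominal fat in all ND livers, by 23.3 times in mean FPKM, or 9.54 times without ND liver replicate 2. In HFD birds the log2 fold change of DIO3 between the tissues was 0.69 (95% interval -0.72 to 2.10, adjusted p = 0.3572 from limma), and HFD liver replicate 1, at 0.75 FPKM, was below all 3 HFD abdominal fats. The difference between the diets in this respect is the test of the diet effect between tissues given further on. DIO2 had log2 fold changes of 0.12 in HFD birds (-0.72 to 0.96) and -0.65 in ND birds (-1.49 to 0.19), and neither passed the test. Without ND abdominal fat replicate 2 the ND value of DIO2 was -1.05 with an adjusted p of 0.01932, a call that rests on leaving that library out.

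THRA had a log2 fold change of -0.25 for liver over abdominal fat in HFD birds (95% interval -0.51 to 0.00279, adjusted p = 0.07307, limma) and -0.13 in ND birds (-0.39 to 0.13, adjusted p = 0.3351), and with quantile normalization over both tissues these turned to 0.28 (adjusted p = 0.04585) and 0.44 (adjusted p = 0.004679). The median of all genes tested was -0.47 in HFD birds and -0.57 in ND birds on the FPKM scale and -0.0011 and -0.018 after that normalization, so that the direction of THRA between the tissues depends on the scaling. The calls of DIO1, THRB, TTR and, in ND birds, DIO3 held under both scalings and under each of the other alternatives tried, where that of DIO3 in ND birds ranged from 2.13 to 3.84. THRA was called as lower in liver in HFD birds with quantile normalization within a tissue (-0.28, adjusted p = 0.04453, limma) and with array weights (-0.25, adjusted p = 0.04139), and in ND birds without ND liver replicate 2 (-0.27, adjusted p = 0.02184).

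The question of the study was which genes differ between the diets within each tissue. In liver, 14510 genes were tested between HFD and ND birds, and 0 genes, 0% of all, were called (limma), with 2012 genes at an unadjusted p under 0.05. None of the 6 members passed. Of the 6, 3 had an unadjusted p under 0.05, which 13.9% of all genes had (9.93% higher and 3.94% lower in HFD), and the same 3 separated the diets without overlap, which 20.1% of all genes did.

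DIO1 averaged 42.6 ± 3.65 FPKM in HFD liver, against 28.7 ± 4.30 FPKM in ND liver (SD, n = 3 each). Its log2 fold change was 0.56 (standard error 0.15, 95% interval 0.22 to 0.90) with an adjusted p of 0.2435 from limma. THRB averaged 6.84 ± 1.17 FPKM in HFD liver, against 3.96 ± 0.446 FPKM in ND liver (SD, n = 3 each). Its log2 fold change was 0.65 (standard error 0.16, 95% interval 0.27 to 1.04, adjusted p = 0.2322). For both genes the difference of the means was larger than the spread between the livers of either diet, and all 3 HFD livers showed its direction.

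DIO3 averaged 2.76 ± 1.88 FPKM in HFD liver, against 24.0 ± 25.0 FPKM in ND liver (SD, n = 3 each), a mean 8.68 times higher in ND. The log2 fold change was -2.33 (standard error 0.78, 95% interval -4.16 to -0.50, adjusted p = 0.3035, limma). Its standard error was the largest of the 6 genes in liver. The SD of log2(FPKM + 1) between the ND livers was 1.59, larger than that of 99.7% of the 14373 genes at a mean of 0.1 FPKM or more there, and between the HFD livers it was 0.85, larger than that of 98.3% of 14481 genes. ND liver replicate 2, the bird with 52.30 FPKM, had the least ALB of the 6 livers (43988 FPKM, against 62646 to 80171 FPKM in the 5 others). Among the other liver markers its F2 (572.29 FPKM) was level with that of ND liver replicate 3 (572.51 FPKM). It had the most AMBP (3111 FPKM), SERPINC1 (1584 FPKM) and VTN (7342 FPKM). The part of this library's state in the result was not tested. Without it, the log2 fold change was -1.51 (adjusted p = 0.5475), and over all birds left out in turn it was -3.09 to -1.51.

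DIO2 averaged 0.81 ± 0.53 FPKM in HFD liver, against 0.40 ± 0.12 FPKM in ND liver (SD, n = 3 each), with a log2 fold change of 0.33 (95% interval -0.14 to 0.80), which was 0.10 without HFD liver replicate 2, the liver with 1.42 FPKM. THRA had a log2 fold change of -0.06 (-0.40 to 0.29), which turned to 0.08 without ND liver replicate 2, the ND liver with the most THRA. TTR averaged 4299 ± 437 FPKM in HFD liver, against 4076 ± 304 FPKM in ND liver (SD, n = 3 each), with a log2 fold change of 0.07 (-0.38 to 0.53, adjusted p = 0.878 from limma). A p that misses the threshold does not show that the diets act alike on THRA and TTR, and the intervals give the changes that the data still allow.

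**Figure D2:**
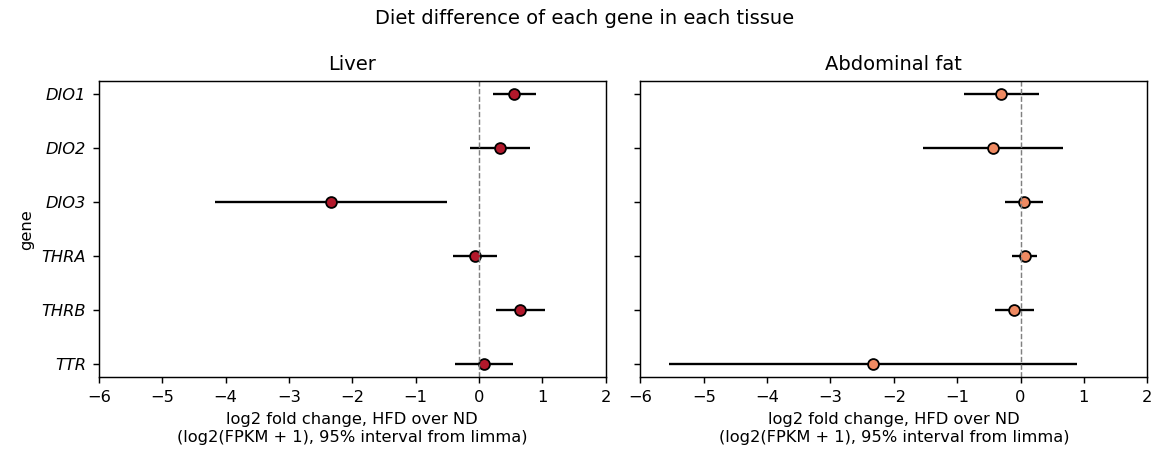
Log2 fold change of HFD over ND on the log2(FPKM + 1) scale for the 6 genes in liver and abdominal fat (points), with 95% intervals from limma as lines. In liver the intervals of DIO1 (0.22 to 0.90), THRB (0.27 to 1.04) and DIO3 (-4.16 to -0.50) lie on one side of 0 before adjustment for the genes tested, and in abdominal fat all 6 intervals include 0.

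Within a liver, DIO1 over DIO3 sets the FPKM of the T3-producing liver deiodinase against that of the inactivating one. This ratio was 62.1, 9.33 and 12.8 in HFD livers, against 2.07, 0.454 and 6.46 in ND livers. Every HFD liver had more DIO1 and less DIO3 than every ND liver, so this ratio could not overlap between the diets. ND replicate 2 was the only liver with more DIO3 than DIO1. Among the HFD livers, replicate 1 had the most DIO1 and the least DIO3, but replicate 3 had less of both than replicate 2. Among the ND livers the order of the birds by DIO3 was the reverse of that by DIO1. The ratio of THRA to THRB was 4.07, 2.93 and 2.89 in HFD livers, against 4.77, 7.63 and 5.43 in ND livers, again with no overlap. These ratios are built from genes already described and carry no test of their own.

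**Figure D3:**
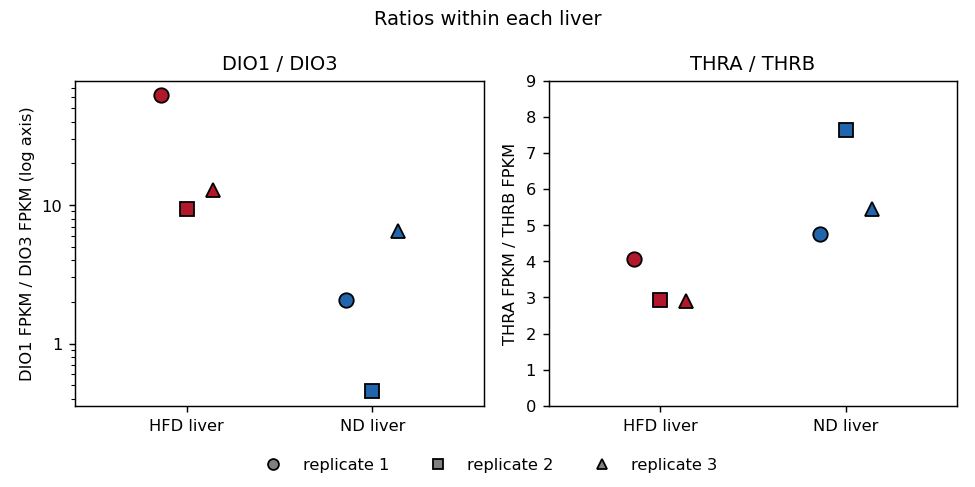
Ratio of DIO1 to DIO3 FPKM (left, log axis) and of THRA to THRB FPKM (right, linear axis from 0) in each liver, with a marker shape for each replicate number. The 3 HFD livers have DIO1 to DIO3 ratios of 9.33 to 62.1 and the 3 ND livers of 0.454 to 6.46.

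In abdominal fat, 15412 genes were tested and 1 gene, 0.00649% of all, was called (limma), with 973 genes at an unadjusted p under 0.05. None of the 6 members was called or had an unadjusted p under 0.05, which 6.31% of all genes had, and 0 of them separated the diets, against 13.5% of all genes. DIO3 had a log2 fold change of 0.06 (95% interval -0.24 to 0.35), THRA one of 0.07 (-0.13 to 0.26) and THRB one of -0.10 (-0.41 to 0.20). Without ND replicate 2 they were 0.14, 0.06 and -0.04. DIO2 had one of -0.44 (-1.53 to 0.66, adjusted p = 0.8209), which became 0.07 without ND replicate 3, the fat with 3.44 FPKM, and -0.84 without ND replicate 2.

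TTR averaged 2.79 ± 0.971 FPKM in HFD abdominal fat and 65.0 ± 103 FPKM in ND abdominal fat (SD, n = 3 each). Its log2 fold change of HFD over ND was -2.33 (95% interval -5.55 to 0.89, adjusted p = 0.7778 from limma) and -0.67 (adjusted p = 0.6951) without ND replicate 2. In that library TTR was at 4.41% of its mean in the livers and DIO1 at 3.71%, beside a range of 3.14% to 5.10% for the 10 liver markers. The part of these liver transcripts in the diet values was not tested. The log2 fold change of DIO1 in abdominal fat was -0.30 with this library and -0.01 without it. In the 5 other fats TTR was at 0.0502% to 0.180% of its liver mean, within the range of the liver markers of the same sample, whereas DIO1 was at 0.561% to 0.926%, above all 10 liver markers in each of these fats. DIO1 was near the floor there, at 0.20 to 0.33 FPKM. Its liver mean was 35.6 FPKM, against 636 to 64817 FPKM for the markers, and a low signal is a larger percentage of a smaller mean. The source of this DIO1 signal was not tested. THRA, by contrast, was at 25.00 FPKM in ND replicate 2, against 25.04 to 27.67 FPKM in the other fats.

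**Figure D4:**
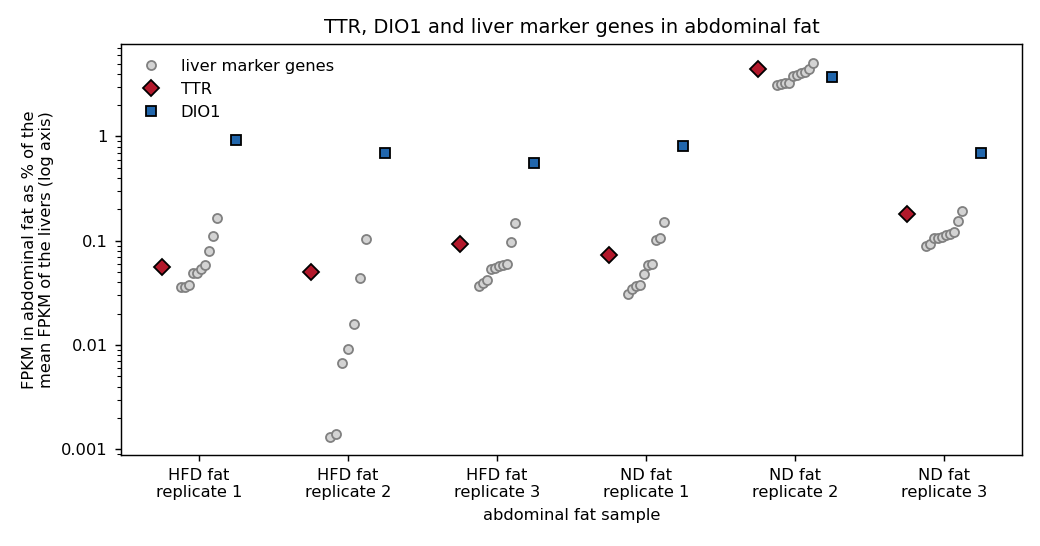
FPKM in each abdominal fat sample as a percentage of the mean FPKM of the 6 livers (log axis) for TTR (diamonds), DIO1 (squares) and the 10 liver marker genes (grey circles, those at 0 not drawn). In ND replicate 2 all of them lie between 3.14% and 5.10%. In the other fats DIO1, at only 0.20 to 0.33 FPKM, lies above the liver markers.

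The diet difference in liver minus that in abdominal fat was tested as an interaction over all 12 samples and 15442 genes, of which 1 gene, 0.00648%, was called (limma). None of the 6 members was called, and 3 had an unadjusted p under 0.05, against 12.6% of all genes. The estimates of these 3 were -2.39 for DIO3 (95% interval -4.38 to -0.39, adjusted p = 0.3523, and -1.56 without ND liver replicate 2), 0.75 for THRB (standard error 0.20, adjusted p = 0.2814) and 0.86 for DIO1 (0.19 to 1.54, adjusted p = 0.3419), the last of which was 0.57 without ND abdominal fat replicate 2. The remaining genes had estimates of 0.77 (DIO2), -0.12 (THRA) and 2.40 (TTR), with intervals that included 0. Without ND abdominal fat replicate 2, DIO3 was at -2.47, THRB at 0.69 and DIO2 at 1.17. TTR was at 0.74 without it.

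Other genes of the pathway were examined as lists. Thyroid hormone enters cells through transporters, of which 7 of 10 listed were found and 6 tested in each tissue. In liver 1 of the 6 had an unadjusted p under 0.05, near the 13.9% of all genes, and 0 passed the adjusted test. It was SLCO1A2, an organic anion transporter that takes up thyroid hormones in mammals, at 181.56, 181.48 and 168.59 FPKM in HFD liver, against 78.94, 53.60 and 94.33 FPKM in ND liver. The HFD livers were all above the ND livers, and the log2 fold change was 1.25 (95% interval 0.78 to 1.73, adjusted p = 0.1387, limma). The median log2 fold change of the list was -0.10 in liver and -0.17 in abdominal fat, beside 0.07 and -0.03 for all genes tested, and in abdominal fat it turned to 0.07 over 5 genes without ND replicate 2.

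The receptors act with retinoid X receptors and with coactivators and corepressors, of which 13 of 14 listed genes were tested. In liver 0 were called and 1 had an unadjusted p under 0.05 (13.9% of all genes did), and in abdominal fat 0 were called and 2 had one, NCOR1 and EP300 (6.31% of all genes did). Of the 13, 2 lay higher and 1 lower in every HFD than in every ND liver, near the 20.1% of all genes that separated the diets. In abdominal fat 0 lay higher and 2 lower, near the 13.5% of all genes. The corepressor NCOR1 was at 7.26, 7.87 and 7.02 FPKM in HFD liver, against 6.38, 3.47 and 5.19 FPKM in ND liver. In abdominal fat NCOR1 was at 9.29, 8.54 and 8.94 FPKM in HFD birds, against 10.97, 10.93 and 10.58 FPKM in ND birds. The diets did not overlap in either tissue, with HFD above ND in liver and below it in abdominal fat, and the interaction was 0.76 (adjusted p = 0.3004, limma). The log2 fold changes were 0.51 in liver and -0.25 in abdominal fat (adjusted p = 0.3415 and 0.765, limma). EP300, a coactivator, was at 7.52, 8.47 and 8.07 FPKM in HFD liver, against at most 7.26 FPKM in each ND liver. In abdominal fat it was at 13.07, 12.25 and 11.27 FPKM in HFD birds, against 16.06, 14.33 and 14.43 FPKM in ND birds. Its groups were also separated in the same directions as those of NCOR1, with an interaction of 0.48 (adjusted p = 0.3004, limma). Of the 13 genes, 2 had an unadjusted interaction p under 0.05 (limma), near the 12.6% of all genes. The share of all genes that separate in opposite directions in the tissues was not computed. RXRG was at 45.53, 38.41 and 26.55 FPKM in HFD liver and 49.83, 48.50 and 48.75 FPKM in ND liver, without overlap (log2 fold change -0.44, adjusted p = 0.3684). The list as a whole had a median log2 fold change of 0.07 in liver, equal to that of all genes, and -0.11 in abdominal fat (-0.14 without ND replicate 2).

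A further list held genes that respond to thyroid hormone in bird or mammal tissues, many of which also respond to feeding. Of 16 listed, 14 were found, 13 were tested in liver and 14 in abdominal fat. None was called in liver, where 4 had positive and 2 negative log2 fold changes at an unadjusted p under 0.05, against 9.93% and 3.94% of all genes. The list had 8 positive values of 13, and its median was 0.30 against 0.07 for all genes. That median was the value of KLF9, for which the diets overlapped. KLF9 was low, at 1.76, 1.47 and 4.48 FPKM in HFD liver and 2.29, 1.55 and 1.41 FPKM in ND liver. CYP7A1, the rate-limiting enzyme of bile acid synthesis, was at 70.25, 59.62 and 67.33 FPKM in HFD liver, against 25.93, 9.48 and 5.58 FPKM in ND liver (log2 fold change 2.44, adjusted p = 0.1598, limma). FASN, the fatty acid synthase, was at 123.22, 150.94 and 280.18 FPKM in HFD liver, against 33.14, 75.71 and 80.84 FPKM in ND liver. ME1, the malic enzyme that supplies NADPH to that synthesis and a classic T3-responsive gene of chicken hepatocytes, was chosen after its values were seen. It was at 81.69, 68.00 and 112.13 FPKM in HFD liver, against 13.04, 32.04 and 56.88 FPKM in ND liver. The diets did not overlap for these 3 genes. Of the 13 tested, 4 lay higher and 2 lower in every HFD than in every ND liver, against 14.3% and 5.82% of all genes. PCK1, a gluconeogenic enzyme, had all HFD livers below all ND livers, with 8.75, 36.16 and 23.68 FPKM in HFD liver, against 44.61, 290.28 and 217.45 FPKM in ND liver (log2 fold change -2.78, adjusted p = 0.2552). CPT1A was lower as well, at 41.91 to 75.98 FPKM in HFD liver, against 110.55 to 198.83 FPKM in ND liver (log2 fold change -1.12, adjusted p = 0.2555, limma). The diets overlapped in liver for ACLY (log2 fold change 0.04) and for THRSP (0.75, adjusted p = 0.5273, limma). In abdominal fat 0 of the 14 genes had an unadjusted p under 0.05, and the median was 0.09 (0.27 over 13 genes without ND replicate 2). Of the 14, THRSP, KLF9 and GPD2 were higher in every HFD than in every ND abdominal fat, which 5.33% of all genes were. HR separated the diets too but was near the floor, at 0.13 to 0.21 FPKM in HFD and 0 to 0.11 FPKM in ND abdominal fat. It passed the filter of 0.1 FPKM only through the HFD fats, so its separation carries no weight and is left out here. THRSP, a lipogenic gene named for its response to thyroid hormone, was at 2594, 2406 and 2746 FPKM in HFD abdominal fat, against 1929, 2241 and 1795 FPKM in ND abdominal fat (log2 fold change 0.38, adjusted p = 0.765, limma), though how its reads were divided from those of its paralog THRSPB is not known. KLF9, GPD2 and HR, and CPT1A and ACLY in liver, were named after their values were seen.

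**Figure D5:**
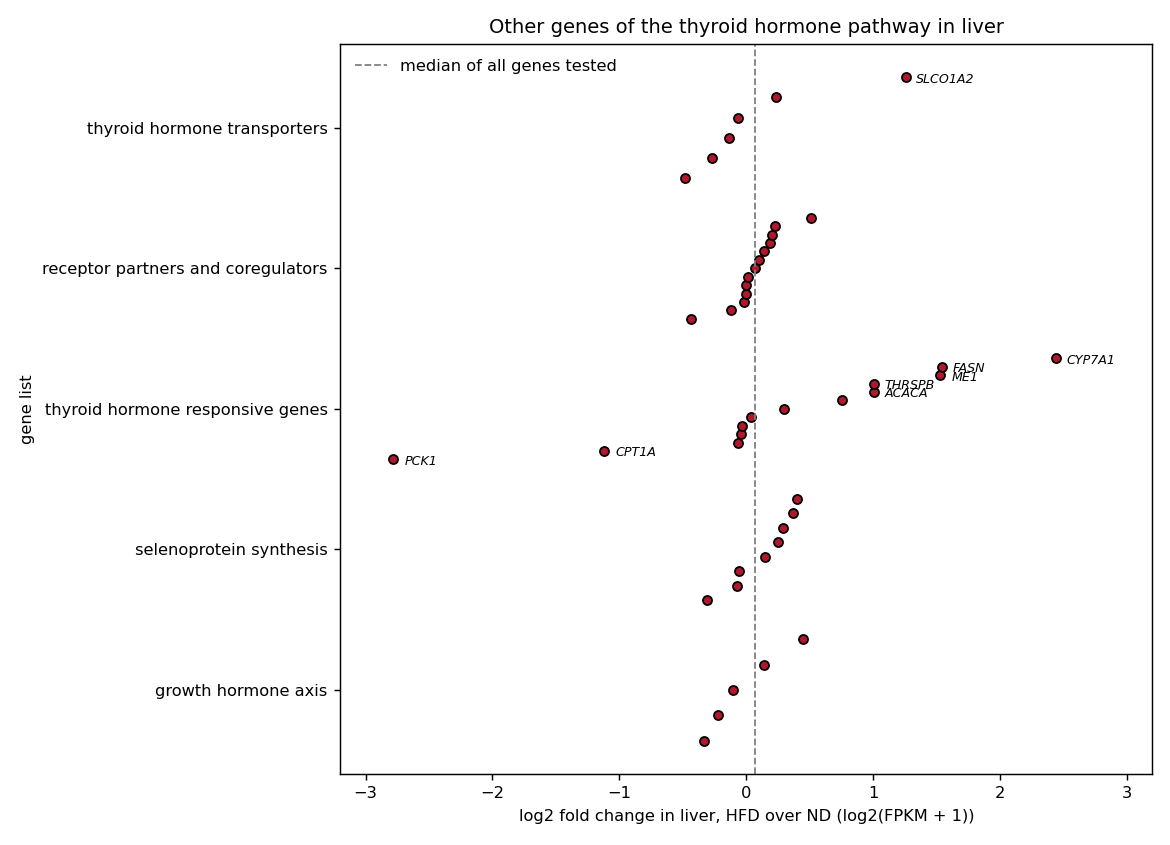
Log2 fold changes of HFD over ND in liver, on the log2(FPKM + 1) scale, for the tested genes of 5 lists (points, spread vertically only for legibility), with the median of all genes tested, 0.07, as a dashed line. SLCO1A2 (1.25) and CYP7A1 (2.44) lie to the right and PCK1 (-2.78) to the left, and none of these genes was called.

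The genes most like each member were sought by Pearson correlation of log2(FPKM + 1) over the 6 samples of the tissue in which the member was higher, among genes that averaged 1 FPKM or more. These values describe 6 samples that differ in diet, and with 9558 genes compared in liver and 10607 in abdominal fat high correlations arise readily. DIO3 was closest to MCOLN1 (r = 0.995), CAMLG (r = 0.989) and GPR182 (r = 0.989). THRB was closest to LCORL, TEAD3 and MRPS18A, and DIO1 to C3H2ORF43, MSL1 and FAF1, at r from 0.992 to 0.997. TTR in liver had lower values, from 0.967 with NPEPL1 to 0.979 with CCDC167. In abdominal fat THRA was closest to PI15 (r = 0.986), BCAR1 and CAP2, and DIO2, whose correlations rest on 1 high fat, to CTC-360G5.8, WTIP (r = 0.996) and LAMA4 (r = 0.995).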

How the data were processed

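The authors sequenced total RNA on the BGISEQ-500 platform and deposited 1 table per sample of FPKM values with 2 decimals, keyed by NCBI gene identifier and symbol. The submitters' processing notes name HISAT2 2.0.4, Bowtie2 2.2.5 and RSEM 1.2.12. The genome build and the use of strand are not given in the sources used here. In the RefSeq annotation of assembly GRCg7b, used for names only, all 6 members matched by identifier, THRB overlaps a lncRNA and TTR a further gene. The values hold no counts, and the steps between low values could be compared for at most 17 genes in a pair of samples, so the depth is unknown.

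Samples were grouped by the tissue and diet in their labels. Livers and fats came from the same birds, but whether equal numbers mark 1 bird is not stated. FPKM were transformed as log2(FPKM + 1), which understates the change of low genes, and genes averaging 0.1 FPKM or more were tested with limma 3.58.1 (R 4.3.3, trended eBayes, two-sided) and Benjamini-Hochberg adjustment over all genes. The diets were fitted per tissue, and the tissues and the interaction in 1 fit of 12 samples. With 3 against 3 samples an exact permutation test cannot go below 0.1. The fits were also run on simulated independent samples, with the spread of every group taken from the HFD livers. That setting leaves out the larger spread of DIO3 in ND liver and the birds shared between tissues. It therefore does not show how the fits perform for the 6 members. Members and lists were chosen with earlier results of these data known. Genes named are the 6 members, the 3 of each list with the largest fold changes (not all printed) and the 3 genes most correlated with each member, besides genes marked as chosen later and IGF1, TRHR, CGA and marker genes, which were chosen after their values were seen. Alternatives were another pseudocount, other filters, quantile normalization, array weights, a replicate block, 1 common fit, the threshold of the study's methods and leaving out each replicate.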

Additional observations from a re-analysis of the deposited data

How the results depend on the processing

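The depth is unknown and groups are small. Across the alternatives, members called in the diet comparisons and the interaction stayed at 0. Gene counts called in liver, abdominal fat and the interaction were 0, 1 and 1. In liver they became 4 with a pseudocount of 0.1, 6 with a filter at 1 FPKM, 12 with array weights, 111 in the fit of all 12 samples and 85 at the threshold of the study's methods. In abdominal fat they became 2 with a pseudocount of 0.1, 2 in the fit of all 12 samples and 14 at the study's threshold, and in the interaction 2 without a filter and 79 at that threshold. The counts at that threshold rest on limma p-values and are not the gene counts that the study reported. A fit with a replicate block gave counts of 0 in abdominal fat and 0 in the interaction, and an adjusted p of 0.2851 for DIO3 in liver. To look for pairs, each gene's log2(FPKM + 1) in a sample was taken as its deviation from the mean of that sample's group. These deviations, not the expression values themselves, were correlated across genes. Same-numbered samples of the diets correlated in this way at -0.05 to 0.06 in liver and -0.13 to 0.04 in abdominal fat. For the tissues these values were 0.16 to 0.22 in HFD and 0.07 to 0.23 in ND birds, 5 of 6 above 0.1, and each liver correlated best with its own number, a hint from the data only. The block changed no call of a member. At the filter of 1 FPKM there was no value for DIO1 and THRB between the diets in abdominal fat, for DIO2 between the diets in liver, nor for DIO2 between the tissues or in the interaction.

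Leaving out each replicate in turn gave 0 to 1 called genes in liver, 0 to 4 in abdominal fat and 0 to 6 in the interaction. Some log2 fold changes crossed 0, most of them small throughout, but that of DIO2 in abdominal fat reached -0.84. For HFD over ND they ranged from -0.14 to 0.080 (THRA) and -0.00040 to 0.15 (TTR) in liver, and from -0.84 to 0.073 (DIO2) and -0.012 to 0.14 (DIO3) in abdominal fat. For liver over abdominal fat in HFD birds DIO2 ranged from -0.11 to 0.30, and for the interaction THRA ranged from -0.21 to 0.014. HFD over ND for THRA in liver was 0.038 with array weights. With quantile normalization over both tissues, chosen after seeing the data, liver over abdominal fat for THRA was 0.28 in HFD and 0.44 in ND birds, from a method that centres both tissues.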

Other observations

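Deiodinases are selenoproteins, and 8 of 9 listed genes of selenocysteine incorporation were tested. None was called between the diets (0 in each tissue, limma), with 1 in liver and 0 in abdominal fat at an unadjusted p under 0.05, beside 13.9% and 6.31% of all genes. Of the 8, 2 lay higher and 0 lower in every HFD than in every ND liver, beside the 20.1% of all genes that separated the diets. These were SECISBP2, at 3.94 to 4.65 FPKM in HFD and 2.13 to 3.59 FPKM in ND liver, and SEPSECS. SEPSECS, the last enzyme of selenocysteine-tRNA synthesis, was at 8.93 FPKM or more in each HFD liver, against 6.74 to 7.26 FPKM in the ND livers (log2 fold change 0.40, adjusted p = 0.2816). In abdominal fat it was at 3.80, 3.66 and 2.97 FPKM in HFD birds and 4.18, 4.10 and 3.19 FPKM in ND birds, which overlapped.

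Growth hormone is known to lower DIO3 in chicken liver. Of 8 listed genes of its axis, 6 were found, and IGF1, its main target in liver, was at 0.08, 0 and 0 FPKM in HFD liver and listed at 0 in all ND livers of these dwarf birds. IGFALS, of the same list, was at 32.75 to 55.40 FPKM in HFD liver and 31.12 to 42.48 FPKM in ND liver. All birds had the receptor mutation, so its part in these levels or in DIO3 was not tested. JAK2, the kinase bound to the receptor, was at 4.84, 5.06 and 4.22 FPKM in HFD liver, against 3.87, 2.42 and 3.39 FPKM in ND liver. STAT5B, the factor it activates, was at 87.76, 103.12 and 98.39 FPKM in HFD liver, against 123.73, 135.74 and 106.98 FPKM in ND liver. The diets did not overlap for either gene, and neither was called (adjusted p = 0.3415 and 0.3456, limma). They were the only ones of the 5 tested in liver that separated the diets, which 20.1% of all genes did, while SOCS2, CISH and IGFALS overlapped. In abdominal fat JAK2 went the other way, at 8.38 to 9.98 FPKM in HFD birds, against 10.42 to 12.14 FPKM in ND birds (adjusted p = 0.765, limma). It was the only 1 of the 6 tested there that separated the diets, which 13.5% of all genes did. How many of all genes separate in opposite directions in the tissues was not computed.

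Of 13 listed thyroid axis genes known from hypothalamus, pituitary and thyroid, 10 were found, and 2, TRHDE and TSHB, were tested in liver. TRHR and CGA were listed at 0 in all 12 samples, whereas TSHB and TG were low but above 0 in each. TSHB was at 0.53 to 1.05 FPKM in HFD liver and 0.26 to 1.61 FPKM in ND liver, with overlap (log2 fold change 0.05, adjusted p = 0.9462, limma). TRHDE, an enzyme that degrades thyrotropin-releasing hormone, was at 7.38, 7.88 and 11.33 FPKM in HFD liver, against 6.80, 4.34 and 4.84 FPKM in ND liver, without overlap (log2 fold change 0.64, adjusted p = 0.3035, limma). It was thus 1 of 2 tested genes that separated the diets in liver, which 20.1% of all genes did.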
